A study of Mus musculus with 12 samples.

Results

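Transcript levels of 10 genes of the oxygen-sensing pathway were described in mouse B-cell acute lymphoblastic leukaemia (B-ALL) and in its fetal liver counterparts. The 10 genes, Hif1a, Epas1, Hif3a, Arnt, Arnt2, Egln1, Egln2, Egln3, Vhl and Hif1an, were chosen by name from the 21885 genes of the table, and all 10 passed the filter on low values. Epas1 passed it through the 4 P80R B-ALL libraries, with 1 Pax5 WT library also above the minimum of 10, and Arnt2 mainly through Pax5 KO, so both entered the tests through the group where they were highest. The P80R B-ALL group held sorted GFP+ leukaemia cells carrying the PAX5 P80R mutant from 4 primary recipients, numbered 1300, 1301, 1302 and 1308. The Pax5 KO group held 4 libraries of Pax5-/- fetal liver cells sorted at the common lymphoid progenitor (CLP) and pre-pro-B stage. The Pax5 WT group held 4 libraries of Pax5+/+ fetal liver cells sorted at the pro-B and pre-BI stage. Genotype and sorted stage therefore cannot be told apart in any comparison. The sources used here do not give the fetal age, the mouse strains, the cells into which the mutant was introduced or the genotype of the recipients. Nothing in the labels states that the 4 libraries of a fetal liver group came from separate embryos, so their p-values measure the spread between these samples only.

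Hypoxia-inducible factors (HIFs) are transcription factors made of an oxygen-labile α subunit, encoded by Hif1a, Epas1 (HIF-2α) or Hif3a, and a stable β subunit, encoded by Arnt or Arnt2. In oxygenated cells the prolyl hydroxylases encoded by Egln1, Egln2 and Egln3 modify the α subunit, which the VHL protein then marks for destruction. The asparagine hydroxylase encoded by Hif1an, known as FIH, blocks binding of coactivators. This control acts on the protein, so that transcript levels do not show HIF activity. Egln3 and, less strongly, Egln1 are themselves known HIF target genes. HIF-1α has known roles in early B-cell development and in blood stem cells, while HIF-2α is best known from endothelium, macrophages and the control of erythropoietin.

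Epas1 was the member that set the leukaemia apart from both fetal liver groups, with levels 24.0-fold those of Pax5 WT and 31.5-fold those of Pax5 KO. Hif1a made up most of the HIF α message in all 12 libraries, with group means between 3778 and 4886. Egln3 and Hif3a were high in Pax5 KO, low in Pax5 WT and spread widely between the leukaemias. The plot of all members by library shows these patterns.

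**Figure D1:**
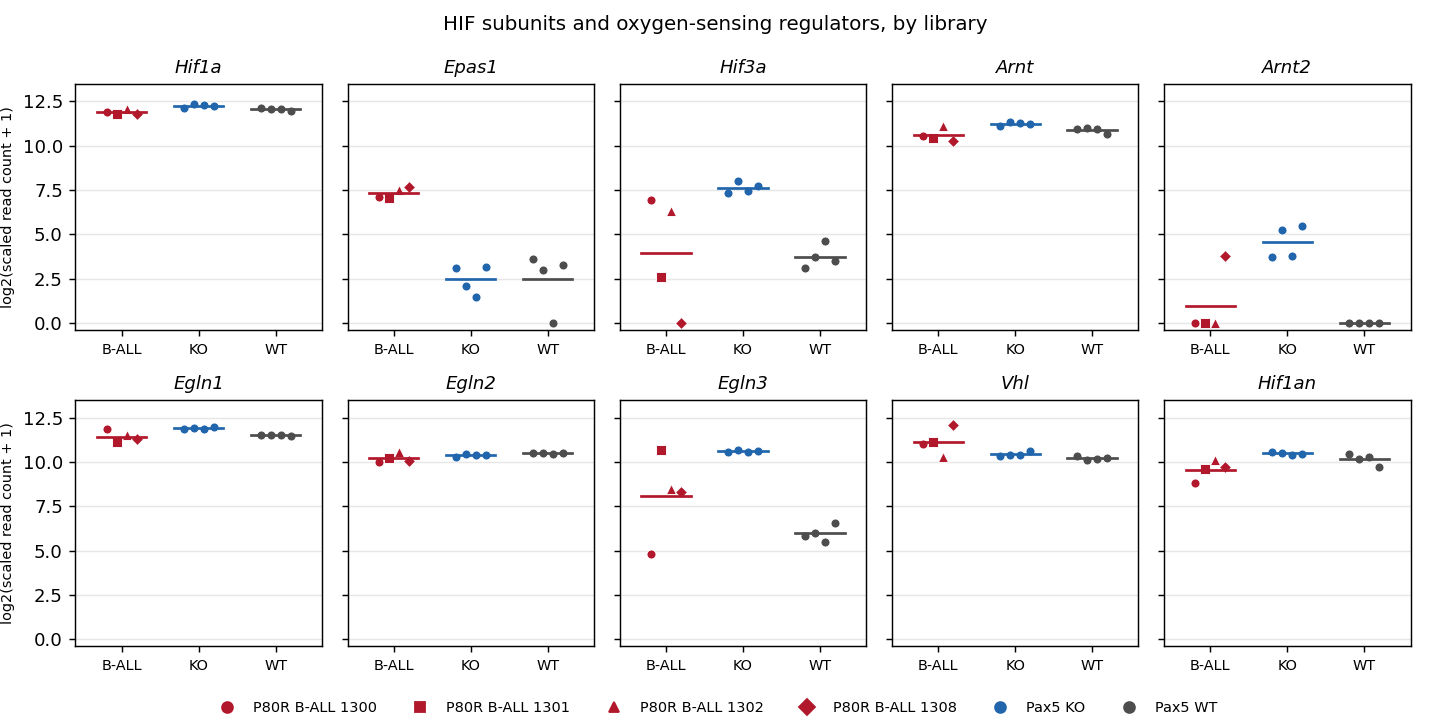
Level of each member in each library, as log2 of the scaled read count plus 1, in P80R B-ALL, Pax5 KO and Pax5 WT; points are single libraries, with a symbol per recipient for P80R B-ALL, and bars are group means. Epas1 was high in the 4 P80R B-ALL libraries, at 132 to 205 before the log, against 1.71 to 7.95 in Pax5 KO and 0 to 11.3 in Pax5 WT, while Egln3 and Hif3a were spread out in P80R B-ALL.

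Values are scaled read counts, that is, reads per gene multiplied by 1 constant per library. Depth was 24914250 to 29386256 reads in P80R B-ALL, 36871775 to 43513852 in Pax5 KO and 33191950 to 39465256 in Pax5 WT. The spread was larger in the leukaemia, where the median standard deviation (SD) of the log2 values of 12200 genes was 0.47, against 0.11 in Pax5 KO and 0.16 in Pax5 WT. Pax5 itself was at 255 to 1316 in P80R B-ALL, at 229.9 to 267 in Pax5 KO and at 6194 to 7315 in Pax5 WT. The low Pax5 KO level goes with the label, but the sorted stage differs too, so it does not check the genotype. Counts per gene do not separate mutant from endogenous Pax5. The B-lineage gene Cd79a was at 7485 to 19767 in P80R B-ALL, at 2343 to 2626 in Pax5 KO and at 43011 to 50939 in Pax5 WT. Markers of other cell types set 2 leukaemia libraries apart. The summed level of 10 erythroid markers was 1070770 in recipient 1308 and 414965 in recipient 1300, against 38946 and 32747 in recipients 1301 and 1302, 209 to 266 in Pax5 KO and 105 to 189 in Pax5 WT. The sum of 9 granulocyte and monocyte markers was 168372 and 148502 in recipients 1308 and 1300 and 2615 and 303 in recipients 1301 and 1302, against 7019.7 to 7709 in Pax5 KO and 9.00 to 14.8 in Pax5 WT. These sums rested on different genes. In Pax5 KO they were mostly Mpo, at 4655 to 5124, and Prtn3, at 1777 to 2174. In each leukaemia library the largest was S100a8, at 67554, 1190, 86.8 and 77275 in recipients 1300, 1301, 1302 and 1308, against 137 to 195 in Pax5 KO. In bulk samples, fewer cells of a type and less RNA per cell cannot be told apart.

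The α subunits come first. Epas1 (ENSMUSG00000024140), which encodes HIF-2α, was at 134, 132, 176 and 205 in recipients 1300, 1301, 1302 and 1308. Pax5 KO had 7.61, 3.29, 1.71 and 7.95, and Pax5 WT had 11.3, 7.00, 0 and 8.60. Every P80R B-ALL library lay above every fetal liver library, and the 2 fetal liver groups overlapped. The difference was 4.85 on the log2 scale ± 0.79 SE (standard error) between P80R B-ALL and Pax5 WT (adjusted p = 0.00127 in limma) and 4.87 ± 0.53 SE between P80R B-ALL and Pax5 KO (adjusted p = 0.000422 in limma). With no filter on low values the adjusted p was 0.00147 against Pax5 WT and 0.000487 against Pax5 KO. The size depended on the low fetal liver values: without library 3 of Pax5 WT, which was at 0, the difference from Pax5 WT was 4.02, and with a pseudocount of 5 the differences were 3.93 from Pax5 WT and 4.07 from Pax5 KO. Between Pax5 KO and Pax5 WT it was -0.02 ± 0.79 SE (adjusted p = 0.983 in limma), with a 95% interval of -1.73 to 1.69, which does not show equal levels. Even in the leukaemia the message was scarce: it rested on 102, 107, 142 and 148 reads, or 3.64 to 5.49 CPM (reads scaled to the library total), against 2 to 11 reads in a Pax5 KO library and 0 to 12 in a Pax5 WT library. Among the 4 recipients Epas1 varied by 1.56-fold, a log2 SD of 0.31, below the median of 0.47 over all genes in that group.

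Markers of cell types that are known to express Epas1 were present in the leukaemia libraries. All 11 endothelial markers were above 0 in at least 1 of them, among them Emcn, Cldn5, Tie1 and Cdh5, which mark vessels. Of the 11 markers, 8 were also above 0 in at least 1 Pax5 KO library and 8 in at least 1 Pax5 WT library. Some did not set every leukaemia apart. Recipient 1302 had Eng at 91.8, against 369 to 593 in Pax5 WT, and Kdr at 29.8, against 32.5 to 58.3 in Pax5 KO. Emcn was at 96.0, 98.4, 11.2 and 58.1 in recipients 1300, 1301, 1302 and 1308, and was 0 in all 8 fetal liver libraries, as was Cldn5. Cdh5 was at 56.5, 48.0, 2.48 and 72.0 in the same recipients, against 1.71 to 6.57 in Pax5 KO and 3.44 to 9.45 in Pax5 WT. The sum of the endothelial list, to which Egfl7 and Pecam1 contribute most, was 9125 to 13809 in P80R B-ALL, 11607 to 12120 in Pax5 KO and 3815 to 4149.9 in Pax5 WT.

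Stromal and macrophage markers were likewise present. All 9 stromal markers were above 0 in at least 1 leukaemia library, and their sum was 3195, 4102, 1308 and 21797 in recipients 1300, 1301, 1302 and 1308. In Pax5 KO it was 999.7 to 1171, with Dcn and Lepr at 0, and in Pax5 WT it was 1.98 to 10.3, with Pdgfra, Dcn and Lepr at 0. Most of the Pax5 KO stromal sum was Pdgfrb, at 942 to 1164, while Col1a1 was at 0 to 38.8 and Cxcl12 at 1.71 to 53.3 there. All 12 macrophage markers were above 0 in at least 1 leukaemia library, with a sum of 3810.2, 5326 and 4568 in recipients 1300, 1301 and 1302 and of 30656 in recipient 1308. In Pax5 KO the macrophage sum was 2019 to 2305, with C1qc, Vsig4, Timd4 and Cd5l at 0, and in Pax5 WT it was 26.0 to 72.8, with 9 of the 12 at 0. Most of the Pax5 KO macrophage sum was Csf1r, at 989 to 1078, and Mrc1, at 719 to 962, while C1qa was at 0 to 1.52 and C1qb at 0 to 10.1 there. Recipient 1308, with the highest Epas1, at 205, also had the highest stromal sum and macrophage sum of the 4 leukaemias. Of the endothelial list, Cdh5, Pecam1, Kdr, Tek, Tie1, Plvap and Cldn5 were highest there. Emcn, Egfl7, Esam and Eng were not, and the endothelial sum was lowest in recipient 1308, at 9125. Recipient 1302, with the second highest Epas1, at 176, had the lowest Emcn, Cdh5 and stromal sum, although the stromal marker Pdgfrb was highest there, at 182. The part of these cells in the Epas1 level was not tested. Without recipients 1300 and 1308 the Epas1 difference was 4.79 against Pax5 WT and 4.81 against Pax5 KO on the log2 scale. These 2 recipients were set apart by erythroid and by granulocyte and monocyte markers. Recipient 1301, which was kept, had Emcn at 98.4, a stromal sum of 4102 and a macrophage sum of 5326. The omission therefore did not remove endothelial, stromal or macrophage RNA and cannot show its part in the Epas1 level.

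**Figure D2:**
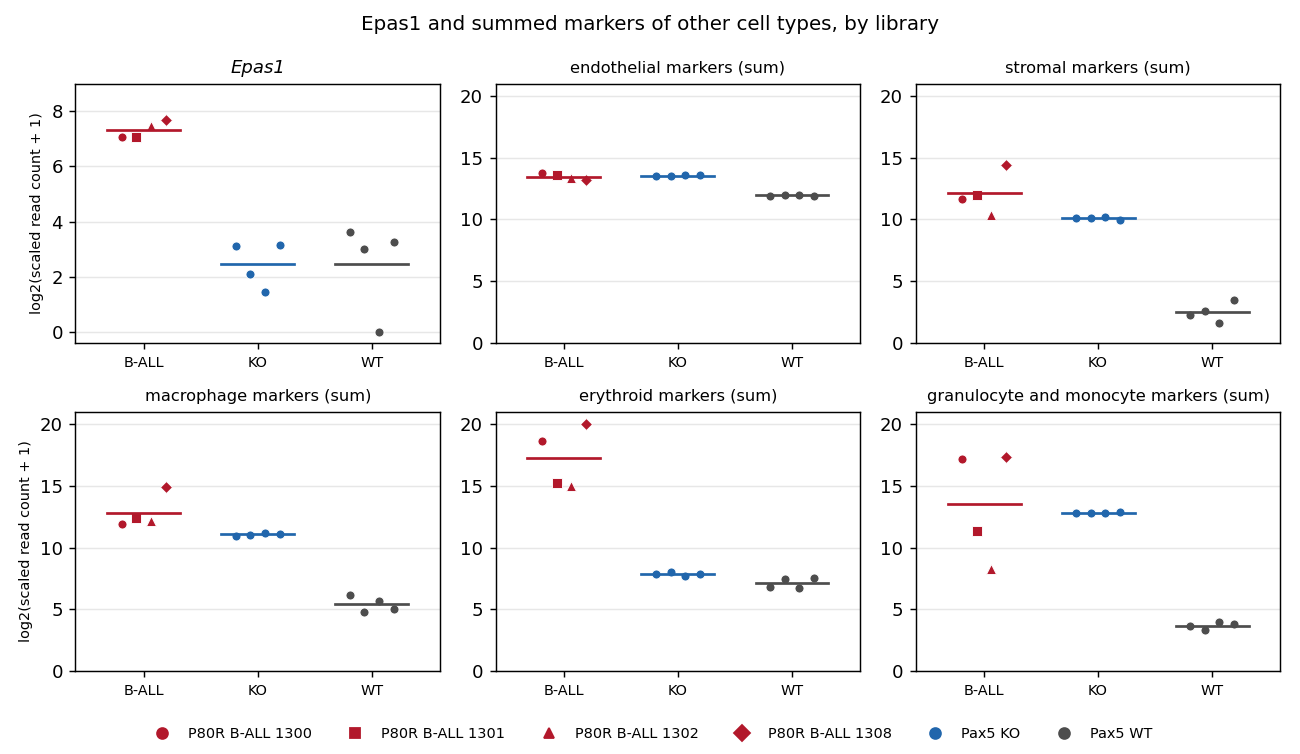
Epas1 and the summed level of 5 marker lists in each library, as log2 of the scaled read count plus 1, in P80R B-ALL, Pax5 KO and Pax5 WT; points are libraries, with a symbol per recipient, and bars are group means. In P80R B-ALL, Epas1 ran from 132 to 205, macrophage sums from 3810.2 to 30656 and stromal sums from 1308 to 21797. Cxcl12 made up 17578 of the stromal sum in recipient 1308. The part of such cells in Epas1 was not tested.

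Hif1a (ENSMUSG00000021109), which encodes the broadly expressed HIF-1α, was at 3749.8, 3495, 4272 and 3595 in recipients 1300, 1301, 1302 and 1308. It was at 4392, 5284, 5107 and 4761 in Pax5 KO and at 4471, 4254, 4235 and 3959 in Pax5 WT. Recipients 1300, 1301 and 1308 were the lowest of the 12 libraries, and recipient 1302 lay within the Pax5 WT range. All leukaemias lay below all Pax5 KO libraries. Hif1a was lower in P80R B-ALL than in Pax5 KO by a log2 difference of -0.37 ± 0.12 SE (adjusted p = 0.0372 in limma), and Pax5 KO exceeded Pax5 WT by 0.21 ± 0.07 SE (adjusted p = 0.0197 in limma). Against Pax5 WT the P80R B-ALL difference was -0.17, with a 95% interval of -0.44 to 0.11 (adjusted p = 0.303 in limma). The call against Pax5 KO was lost in 11 of 19 alternatives, among them the omission of any 1 Pax5 KO library (adjusted p 0.0534 to 0.119) and of recipient 1300 or 1301 (adjusted p = 0.0553 and 0.0563). The call between Pax5 KO and Pax5 WT was lost without library 2 or 3 of Pax5 KO (adjusted p = 0.067 and 0.0614).

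Hif3a (ENSMUSG00000004328) encodes HIF-3α, of which some forms are known to hold back the other α subunits. It was at 121, 4.92, 78.2 and 0 in recipients 1300, 1301, 1302 and 1308, where the last value of 0 allows up to 3 reads, or 0.111 CPM. It was at 157, 251, 171 and 213 in Pax5 KO and at 7.56, 12.0, 23.7 and 10.3 in Pax5 WT. Recipients 1300 and 1302 lay between the 2 fetal liver groups, and recipients 1301 and 1308 lay below both. The Pax5 KO level was 14.8-fold that of Pax5 WT, a log2 difference of 3.88 ± 0.33 SE (adjusted p = 4.97e-07 in limma). For P80R B-ALL the log2 difference was 0.22 ± 1.40 SE against Pax5 WT (adjusted p = 0.915 in limma) and -3.66 ± 1.38 SE against Pax5 KO (adjusted p = 0.0632 in limma). The difference from Pax5 KO passed without recipient 1300, at -4.66 (adjusted p = 0.024 in limma), and without recipient 1302, at -4.45 (adjusted p = 0.0382 in limma). The deposited counts do not tell its splice forms apart.

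Per kilobase of exon, Hif1a made up 93.8 to 96.1% of the summed α subunit message in P80R B-ALL, 95.9 to 97.1% in Pax5 KO and 99.5 to 99.6% in Pax5 WT. The remainder had a different make-up in each group. Epas1 held 3.54, 3.82, 4.10 and 5.67% in recipients 1300, 1301, 1302 and 1308, against 0.0344 to 0.177% in Pax5 KO and 0 to 0.266% in Pax5 WT. Hif3a held 0 to 2.66% in P80R B-ALL, 2.86 to 4.01% in Pax5 KO and 0.148 to 0.490% in Pax5 WT. These shares are of messages, on a scale of level per kb, and say nothing of protein.

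**Figure D3:**
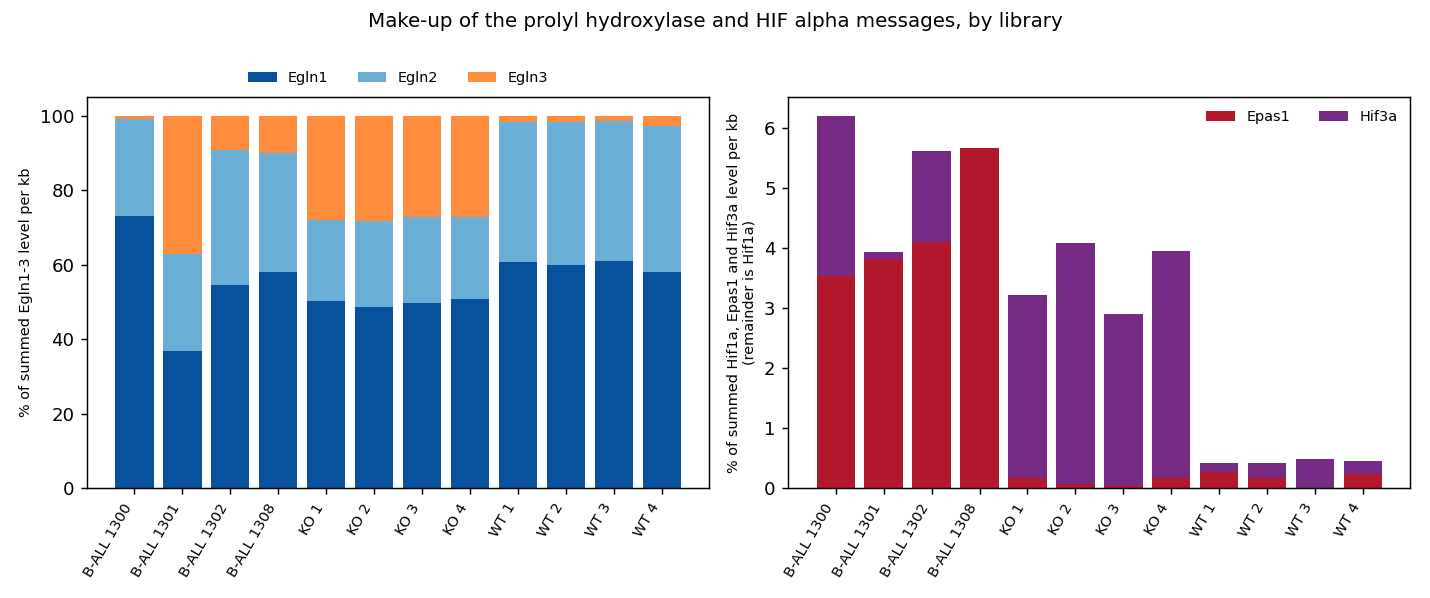
Share of each gene in the summed level per kb of Egln1, Egln2 and Egln3 (left) and of Hif1a, Epas1 and Hif3a (right, where the remainder up to 100% is Hif1a), in % and with 1 bar per library. Egln3 held 0.733 to 37.2% in P80R B-ALL, 27.2 to 28.2% in Pax5 KO and 1.24 to 2.67% in Pax5 WT, and Epas1 was the larger of the 2 minor α subunits in every P80R B-ALL library.

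The β subunit was almost wholly Arnt. Arnt (ENSMUSG00000015522), the partner of every HIF α subunit and of the aryl hydrocarbon receptor, was at 1479, 1397, 2234 and 1208 in recipients 1300, 1301, 1302 and 1308. It was at 2204, 2609.9, 2439 and 2366 in Pax5 KO and at 1927, 2027, 1957 and 1596 in Pax5 WT. Recipient 1302 lay within the Pax5 KO range and the other 3 recipients lay below all fetal liver libraries. Arnt was lower in P80R B-ALL than in Pax5 KO, with a log2 difference of -0.64 ± 0.19 SE (adjusted p = 0.026 in limma), and Pax5 KO exceeded Pax5 WT by 0.36 ± 0.09 SE (adjusted p = 0.0026 in limma). The first of these calls was lost without any 1 Pax5 KO library (adjusted p 0.0514 to 0.0777), without recipient 1301 (adjusted p = 0.0559), and without recipients 1300 and 1308, at -0.44 (adjusted p = 0.0908 in limma). Against Pax5 WT the P80R B-ALL difference was -0.28, with a 95% interval of -0.73 to 0.16 (adjusted p = 0.283 in limma), and it passed without recipient 1302, at -0.46 (adjusted p = 0.0325 in limma).

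Arnt2 (ENSMUSG00000015709), the paralogue of Arnt known mainly from brain and kidney, was near the limit of detection. It was at 0 in recipients 1300, 1301 and 1302 and at 12.5 in recipient 1308, which is 9 reads. It was at 12.2, 36.2, 12.9 and 42.6 in Pax5 KO, or 15 to 59 reads, and at 0 in all 4 Pax5 WT libraries. Pax5 KO was at least 9.12-fold higher than Pax5 WT when each Pax5 WT library is set to a floor of 3 reads. The test did not use this floor: with Pax5 WT at 0, the log2 difference was 4.54 ± 0.55 SE (adjusted p = 1.32e-05 in limma). Arnt2 entered that test mainly through Pax5 KO, the group where it was highest. Arnt2 was also lower in P80R B-ALL than in Pax5 KO (adjusted p = 0.0204 in limma), with means of 3.11 ± 6.23 in P80R B-ALL and 26.0 ± 15.7 in Pax5 KO (SD, n = 4 each), where the P80R B-ALL mean rests on recipient 1308 alone. The call between P80R B-ALL and Pax5 KO was lost without library 2 or 4 of Pax5 KO (adjusted p = 0.0654 and 0.0666), in edgeR (adjusted p = 0.103) and in DESeq2 (adjusted p = 0.134). Genes on the opposite strand overlap exons of Arnt2, Hif1a and Egln2 in the GENCODE M21 annotation. Since the library kit does not mark strand, reads from the shared stretches cannot be told apart from those of these members. The gene overlapping Egln2, the protein-coding Cyp2t4, averaged 2.22 in P80R B-ALL, 2.03 in Pax5 KO and 3.11 in Pax5 WT. Gm49321, which overlaps Hif1a on the same strand, averaged 0 in every group.

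Of the prolyl hydroxylases, Egln3 differed most between the fetal liver groups and between the leukaemias. Egln3 (ENSMUSG00000035105), which encodes PHD3, was at 27.6, 1659, 362 and 314 in recipients 1300, 1301, 1302 and 1308, a 60.1-fold range. It was at 1550.1, 1669.8, 1528 and 1603 in Pax5 KO and at 56.7, 63.0, 44.5 and 95.5 in Pax5 WT. Recipient 1301 lay within the Pax5 KO range, recipients 1302 and 1308 lay between the fetal liver groups and recipient 1300 lay below both. Pax5 KO was 24.5-fold above Pax5 WT, a log2 difference of 4.64 ± 0.19 SE (adjusted p = 5.32e-10 in limma). The P80R B-ALL difference was 2.10 ± 1.02 SE against Pax5 WT (adjusted p = 0.129 in limma) and -2.55 ± 1.01 SE against Pax5 KO (adjusted p = 0.075 in limma). Both depended on single recipients. Without recipient 1300 the difference from Pax5 WT passed, at 3.18 (adjusted p = 0.00402 in limma), as it did on recovered reads in edgeR (adjusted p = 0.0332) and DESeq2 (adjusted p = 0.00054), and without recipient 1301 that from Pax5 KO passed, at -3.42 (adjusted p = 0.0168 in limma). The log2 SD of Egln3 among the leukaemias was 2.42, against 0.06 in Pax5 KO and 0.45 in Pax5 WT.

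The stretches just before the starts of Egln3 and Hif3a are shown because these were the 2 members with over 100 scaled reads in Pax5 KO that differed most from Pax5 WT. They are the 250 bases upstream of the RefSeq start in build GRCm38.p6, which is older than the build of the counts, read 5′ to 3′ on the minus strand, at chr12:54203875-54204124 for Egln3 and at chr7:17062428-17062677 for Hif3a. Capitals mark matches to the hypoxia response element core, ACGTG or GCGTG on either strand, and neither stretch holds CACGTG, the E-box that overlaps this core.
Egln3: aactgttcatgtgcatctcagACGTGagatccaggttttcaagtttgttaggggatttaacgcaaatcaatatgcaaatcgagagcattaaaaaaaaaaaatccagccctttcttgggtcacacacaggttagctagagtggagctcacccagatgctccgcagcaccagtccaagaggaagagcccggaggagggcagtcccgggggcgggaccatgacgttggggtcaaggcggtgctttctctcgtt
Hif3a: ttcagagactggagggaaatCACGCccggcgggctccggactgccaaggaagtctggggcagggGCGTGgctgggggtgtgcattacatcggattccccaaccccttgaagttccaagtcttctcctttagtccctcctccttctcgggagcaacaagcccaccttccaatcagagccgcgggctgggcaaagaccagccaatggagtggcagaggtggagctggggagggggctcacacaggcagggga
Egln3 held 1 match and Hif3a held 2. Of 32851 such stretches in the RefSeq table, 38.6% held at least 1 match and 16.7% held 2 or more, so a match is common and describes these letters only. The table held 9 of the 10 members, and Epas1 was the one not matched.

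Egln1 (ENSMUSG00000031987), which encodes PHD2, the main oxygen sensor among the 3 enzymes, was at 3716, 2220.0, 2935 and 2508 in recipients 1300, 1301, 1302 and 1308. It was at 3763, 3895, 3764 and 4051 in Pax5 KO and at 2995, 2985, 2964 and 2807 in Pax5 WT. The Pax5 KO libraries were the highest of all, and the leukaemias spread around the Pax5 WT values. Egln1 in Pax5 KO exceeded Pax5 WT by 0.40 ± 0.06 SE on the log2 scale (adjusted p = 4.93e-05 in limma). It was lower in P80R B-ALL than in Pax5 KO by a difference of -0.47 ± 0.16 SE (adjusted p = 0.0489 in limma), a call lost in 12 of 19 alternatives. Among these were the omission of any 1 Pax5 KO library (adjusted p 0.0973 to 0.121) and of recipient 1301, 1302 or 1308 (adjusted p = 0.0883, 0.0568 and 0.0795).

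Egln2 (ENSMUSG00000058709), which encodes PHD1, had the smallest log2 SD of the hydroxylases in P80R B-ALL, at 0.248, and in Pax5 WT, at 0.023. In Pax5 KO its log2 SD was the largest of them, at 0.077. It was at 1040.0, 1221, 1519.7 and 1074 in recipients 1300, 1301, 1302 and 1308, at 1260.0 to 1434 in Pax5 KO and at 1431 to 1481 in Pax5 WT. The leukaemias surrounded both fetal liver ranges. No comparison passed, with 95% intervals of -0.63 to 0.07 for the leukaemia against Pax5 WT, -0.51 to 0.17 for the leukaemia against Pax5 KO, and -0.25 to 0.04 for Pax5 KO set against Pax5 WT on the log2 scale. The first of these passed without recipient 1302, at -0.39 (adjusted p = 0.0356 in limma).

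As a share of the 3 prolyl hydroxylase messages per kb, Egln3 held 0.733, 37.2, 9.10 and 9.84% in recipients 1300, 1301, 1302 and 1308. It held 27.2 to 28.2% in Pax5 KO and 1.24 to 2.67% in Pax5 WT. Egln1 was the largest of the 3 in every Pax5 KO and Pax5 WT library, at 48.7 to 50.9% and 58.1 to 61.0%. In recipient 1301 it held 36.8%, just under the Egln3 share.

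Vhl and Hif1an act on the hydroxylated or free α subunit. Vhl (ENSMUSG00000033933), the substrate receptor of the ubiquitin ligase that degrades HIF α, was at 2105, 2249.6, 1244 and 4327 in recipients 1300, 1301, 1302 and 1308. It was at 1329, 1367, 1361 and 1561 in Pax5 KO and at 1281, 1119.5, 1178 and 1186 in Pax5 WT. Recipients 1300, 1301 and 1308 lay above all fetal liver libraries, and recipient 1302 lay within the Pax5 WT range. P80R B-ALL was above Pax5 WT by 0.92 ± 0.31 SE on the log2 scale (adjusted p = 0.0419 in limma). This call was lost without recipients 1300 and 1308, at 0.49 (adjusted p = 0.123 in limma), and likewise without recipient 1300 or 1301 alone (adjusted p = 0.0676 and 0.0773) or any 1 Pax5 WT library (adjusted p 0.0787 to 0.0962). Recipient 1308, with the highest Vhl, also had the highest erythroid sum, at 1070770, and recipient 1302, with the lowest Vhl, had the lowest, at 32747. Recipients 1300 and 1301 did not follow this order, since Vhl was at 2105 and 2249.6 in them and the erythroid sum at 414965 and 38946. The stromal sum followed the Vhl order, at 21797, 4102, 3195 and 1308 in recipients 1308, 1301, 1300 and 1302. The endothelial, macrophage and granulocyte and monocyte sums did not. The part of erythroid or stromal RNA in the Vhl level was not tested. Against Pax5 KO the P80R B-ALL difference was 0.68 ± 0.32 SE (adjusted p = 0.121 in limma), and it passed without recipient 1302, at 0.96 (adjusted p = 0.0172 in limma). Pax5 KO likewise exceeded Pax5 WT in Vhl, by 0.24 ± 0.08 SE (adjusted p = 0.0171 in limma), a call lost without library 4 of Pax5 KO (adjusted p = 0.0645) or library 2 of Pax5 WT (adjusted p = 0.0547).

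Hif1an (ENSMUSG00000036450) was at 448, 785, 1115 and 862 in recipients 1300, 1301, 1302 and 1308, at 1543, 1451, 1378 and 1420.1 in Pax5 KO and at 1428, 1155, 1242 and 840.4 in Pax5 WT. All leukaemias lay below all Pax5 KO libraries, and they overlapped Pax5 WT. Hif1an was lower in P80R B-ALL than in Pax5 KO, with a log2 difference of -0.92 ± 0.25 SE (adjusted p = 0.0195 in limma), a call lost without library 1 or 2 of Pax5 KO (adjusted p = 0.056 and 0.0528). In Pax5 KO it exceeded the Pax5 WT level by 0.34 ± 0.13 SE (adjusted p = 0.0399 in limma), and that call was lost without any 1 Pax5 KO library (adjusted p 0.0583 to 0.102) or library 2 of Pax5 WT (adjusted p = 0.069). Against Pax5 WT the P80R B-ALL difference was -0.59, with a 95% interval of -1.22 to 0.05 (adjusted p = 0.127 in limma).

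Counted over the 3 comparisons, 2 of the 10 members, Epas1 and Vhl, were higher and 0 lower in P80R B-ALL than in Pax5 WT. With limma p-values left unadjusted, at 0.05, the number lower was also 0, and edgeR and DESeq2 called 0 lower too. Over all 12192 genes tested in that comparison, 21.1% were called higher and 18.9% lower. The median difference of the members was 0.07, against -0.004 over all genes. Against Pax5 KO, 1 member, Epas1, was higher and 5, Hif1a, Arnt, Arnt2, Egln1 and Hif1an, were lower in P80R B-ALL, beside 17.6% of 12194 genes called higher and 20.8% called lower. Total-count scaling moved the share of higher calls among all called genes in this comparison to 35.5%, against 45.9%, and edgeR and DESeq2 moved it to 57.9% and 57.4%. The median difference of all genes moved to -0.26 with total-count scaling, 0.06 in edgeR and 0.08 in DESeq2, against -0.11 as reported on the log2 scale. The median of the members was -0.56 as reported. Between Pax5 KO and Pax5 WT, 8 members were higher and 0 lower, the other two being Epas1 and Egln2, beside 35.8% of 12147 genes called higher and 29.2% called lower. Here too 0 members were lower with unadjusted limma p-values at 0.05, in edgeR and in DESeq2. The median of the members was 0.35, against 0.06 over all genes. The comparisons share libraries in pairs, so their counts are not independent.

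**Figure D4:**
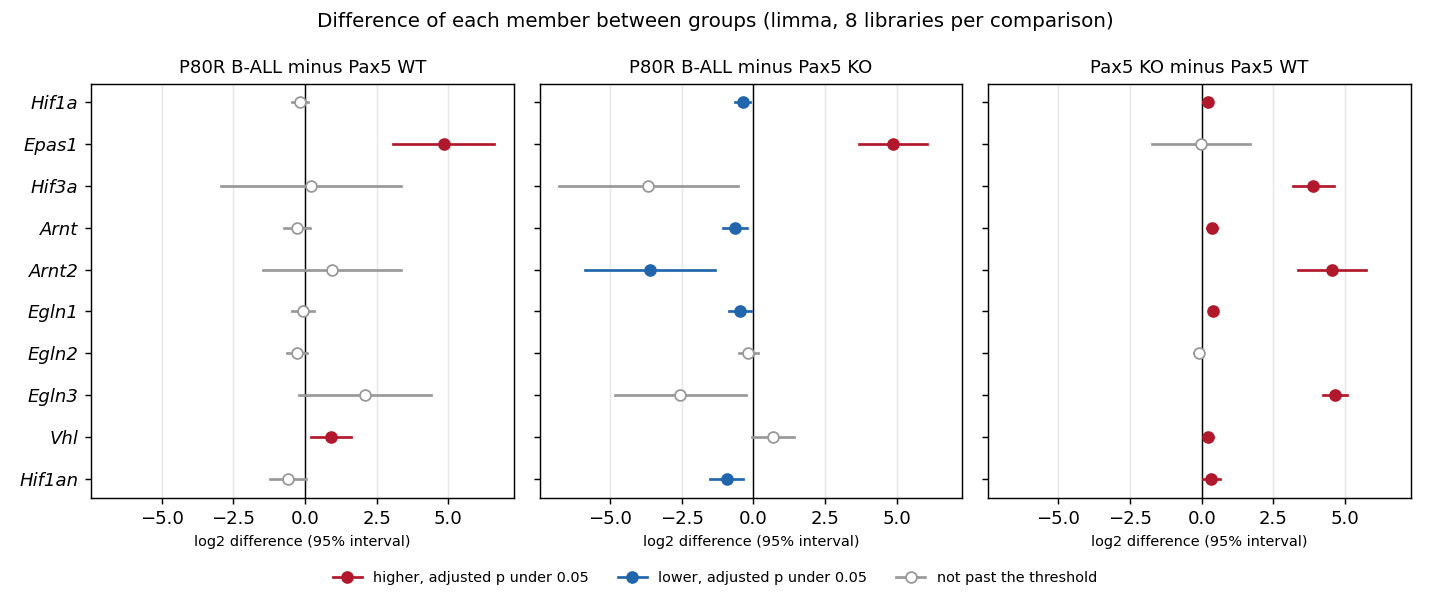
Log2 difference of each member between groups with its 95% interval, from limma fits to the 8 libraries of each comparison; filled points passed an adjusted p of 0.05. Epas1 was the one member higher in P80R B-ALL than in both fetal liver groups, at 4.85 and 4.87, and the intervals of Hif3a and Egln3 in the P80R B-ALL panels span several log2 units.

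Ordered by level per kb of exon, the leukaemia had Vhl first at 828 ± 436, then Egln1 at 791 ± 181 and Hif1a at 641 ± 58.7 (SD, n = 4), with overlapping ranges between neighbours. Egln2 at 433 ± 78.1, Egln3 at 222 ± 273, Arnt at 197 ± 56.3 and Hif1an at 122 ± 41.6 followed, where each overlapped the next from Egln2 on. Epas1 at 28.9 ± 6.31 was apart from Hif1an above and from Hif3a below, at 7.60 ± 8.76, and Arnt2 was last at 0.405. In Pax5 KO the order was Egln1 at 1076 ± 38.1, Hif1a at 829 ± 66.9, Egln3 at 596 ± 23.8, Egln2 at 483 ± 25.5 and Vhl at 469 ± 35.3, and of these neighbours Egln2 and Vhl alone overlapped. Arnt at 300.3, Hif1an at 219, Hif3a at 29.5, Arnt2 at 3.38 and Epas1 at 0.920 came after them without overlap. In Pax5 WT the order was Egln1 at 817 ± 24.5, Hif1a at 717 ± 35.6, Egln2 at 521 ± 8.46 and Vhl at 398 ± 22.4, all apart, then Arnt at 234 and Hif1an at 177, which overlapped. Egln3 stood seventh there at 24.4 ± 8.18, and Hif3a at 2.00, Epas1 at 1.21 and Arnt2 at 0 closed the list.

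Genes around the core machinery moved in both directions. The list counts here and below stand beside the shares of all tested genes. For P80R B-ALL these were 21.1% higher and 18.9% lower against Pax5 WT, and 17.6% higher and 20.8% lower against Pax5 KO. For Pax5 KO against Pax5 WT they were 35.8% higher and 29.2% lower. Counts near these shares show nothing particular to a list. Of 19 genes of the VHL ligase and of HIF protein turnover, 1 was higher and 4 lower in P80R B-ALL than in Pax5 WT, a median of -0.02. Siah1a, a ubiquitin ligase that acts on prolyl hydroxylases, averaged 1957 ± 449 in P80R B-ALL and 1095 ± 55.4 in Pax5 WT. Against Pax5 KO, 4 were higher and 2 lower. Gsk3b, a kinase known to promote HIF-1α turnover, averaged 1695 ± 405 in P80R B-ALL and 3072 ± 264 in Pax5 KO, while Eloc, the elongin C subunit that joins VHL to its cullin, averaged 10986 ± 2088 in P80R B-ALL and 6812 ± 275 in Pax5 KO. Between Pax5 KO and Pax5 WT, 3 were higher and 10 lower, with Usp20, a deubiquitinase known to act on HIF-1α, averaging 692 ± 33.6 in Pax5 KO cells and 242 ± 20.4 in Pax5 WT cells. Without recipients 1300 and 1308 the counts were 3 higher and 6 lower against Pax5 WT and 5 higher and 5 lower against Pax5 KO. Over all genes, 2748 were then called higher and 2555 lower of 12175 against Pax5 WT. Against Pax5 KO, 2591 were called higher and 3399 lower of 12190.

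Among coactivators and their CITED competitors, 8 of 9 listed genes were tested. Cited2, which competes with HIF α for p300 and CBP and is a known HIF target, averaged 3278 ± 525 in P80R B-ALL and 1620.4 ± 138 in Pax5 WT. The difference was 1.01 ± 0.15 SE on the log2 scale (adjusted p = 0.000847 in limma). It was likewise higher in Pax5 KO, at 3463 ± 129 against 1620.4 ± 138 in Pax5 WT. Cdk8, a kinase of the Mediator complex, averaged 661 ± 212 in P80R B-ALL and 1399 ± 50.4 in Pax5 KO (adjusted p = 0.00724 in limma). The counts were 1 higher and 2 lower for P80R B-ALL against Pax5 WT, 0 higher and 1 lower against Pax5 KO, and 3 higher and 2 lower for Pax5 KO against Pax5 WT. Of the other bHLH-PAS factors, the protein family of the HIF subunits, 4 of 11 listed genes were tested. Ahr, the aryl hydrocarbon receptor, averaged 22.0 ± 16.2 in P80R B-ALL and 303 ± 41.9 in Pax5 KO, and it was at 5.17 ± 5.66 in Pax5 WT. Bmal1, a circadian clock factor, averaged 921 ± 537 in P80R B-ALL, 395 ± 14.2 in Pax5 KO and 4890.0 ± 145 in Pax5 WT, and all 3 differences passed.

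Other enzymes that use oxygen, with the enzymes that set their metabolites, counted 2 higher and 4 lower of 19 in P80R B-ALL against Pax5 WT, 0 higher and 7 lower against Pax5 KO, and 11 higher and 1 lower in Pax5 KO against Pax5 WT. Kdm3a, a histone demethylase and known HIF target, averaged 1256 ± 244 in P80R B-ALL, 2778 ± 283 in Pax5 KO and 2854 ± 312 in Pax5 WT, and it was lower in P80R B-ALL than in either. Idh2, the mitochondrial isocitrate dehydrogenase, averaged 21349 ± 371 in Pax5 KO and 14081 ± 770.2 in Pax5 WT (adjusted p = 7.28e-07 in limma). Of 30 listed HIF-responsive genes, 25 were tested in each comparison. In P80R B-ALL against Pax5 WT, 1 was higher and 10 lower, with a median of -0.58 against -0.004 over all genes. Bnip3, a mitophagy gene, averaged 1292 ± 256 in P80R B-ALL and 4381 ± 285 in Pax5 WT, and its level in Pax5 KO was 1056 ± 28.4. Against Pax5 KO, 4 were higher and 5 lower. Kdm4a, a histone demethylase, averaged 603 ± 166 in P80R B-ALL and 1366 ± 76.0 in Pax5 KO, and Slc2a1, the glucose transporter GLUT1, averaged 659 ± 175 in P80R B-ALL and 1439.6 ± 78.4 in Pax5 KO. Between Pax5 KO and Pax5 WT, 9 were higher and 13 lower, and Ndrg1, a stress-response gene, averaged 1057 ± 62.8 in Pax5 KO and 337 ± 13.9 in Pax5 WT. Without recipients 1300 and 1308 the HIF-responsive counts were 2 higher and 10 lower against Pax5 WT and 5 higher and 7 lower against Pax5 KO. The counts over all genes without these recipients are given above.

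The genes whose levels followed Epas1 and Egln3 most closely were found by the root mean square difference of centred log2 values over the 12 libraries. For Epas1 they were Smpdl3a (0.78), Tnfsf12 (0.94), Slc38a8 (0.95), Fkbp10 (0.97) and Ushbp1 (0.97). Smpdl3a was at 263, 126, 65.7 and 464 in recipients 1300, 1301, 1302 and 1308, against means of 7.05 in Pax5 KO and 5.82 in Pax5 WT. The other four averaged 26.3 to 44.3 in P80R B-ALL and at most 2.05 in either fetal liver group. For Egln3 the closest were Slc39a4 (0.59), S1pr3 (0.64), Nfil3 (0.83), Nr1h4 (0.84) and Capn13 (0.88). S1pr3, a sphingosine 1-phosphate receptor, averaged 189.7 ± 194 in P80R B-ALL, 565 ± 64.1 in Pax5 KO and 27.0 ± 6.58 in Pax5 WT. Nfil3, a transcription factor of innate lymphoid development, was at 15.8, 345, 177 and 210.3 in the same recipients, at 627 ± 56.6 in Pax5 KO and at 25.9 ± 16.8 in Pax5 WT. As for Egln3, recipient 1300 was the lowest leukaemia and recipient 1301 the highest in both. Both genes were picked for following Egln3 over these same libraries, so the shared order is no separate evidence.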

How the data were processed

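RNA-seq libraries were made from sorted cells with the Takara SMART-Seq v4 full-length kit, per the labels' protocols. The submitters' processing notes name fastp, STAR 2.7.8a, featureCounts and the mm39 build; the sources used here do not give the annotation, the strand setting or the treatment of multiply mapped reads. The values deposited by the authors are signal values: all (100%, within 0.001) were whole multiples of 1 constant per library, so whole reads per gene could be recovered, while how the constants were set was not stated. edgeR was to be the test for raw counts; limma was used because the values are scaled. Read floors cover counting error only.

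Values were analysed as log2(value + 1), the scale of every difference, which understates changes of scarce genes. Genes reaching 10 in 4 or more of the 12 libraries entered the tests, except those at 0 throughout a pair. limma 3.58.1 (R 4.3.3; trend, robust, two-sided) was fitted to the 8 libraries of each pair, since the leukaemias were far more variable than the fetal liver libraries. p-values were Benjamini-Hochberg adjusted over all tested genes, with a threshold of 0.05. edgeR 4.0.16 and DESeq2 1.42.0 on recovered reads were alternatives. On recovered reads edgeR called 4786 genes for P80R B-ALL against Pax5 WT, 4353 against Pax5 KO and 7893 for Pax5 KO against Pax5 WT. The fit was tested on simulated data, where P80R B-ALL comparisons gave more false calls than the threshold allows, so calls near the threshold there are less secure.

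All members were named. From other lists, the gene with the smallest adjusted p in each comparison was named, with a few others among the 3 smallest past the threshold, and for Epas1 and Egln3 the 5 genes of most like pattern. Symbols and exon lengths came from GENCODE M21. The members and lists were chosen with earlier results of these data known.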

Additional observations from a re-analysis of the deposited data

Results flagged for a closer look

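The gap of the highest or lowest library to its nearest neighbour was set against the range of its group for the 10 members in 3 groups, on the log2 scale. Chance alone marks about 1 group in 20. Arnt2 stood out in the leukaemia, because recipient 1308 was at 12.5, from 9 reads, and the other 3 recipients were at 0. Egln1 stood out in Pax5 WT, where library 4 was lowest at 2807 and the other 3 libraries were at 2964 to 2995.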

How the results depend on the processing

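Epas1 stayed past the threshold in both leukaemia comparisons in all 19 alternatives, and Hif3a, Arnt2, Egln1 and Egln3 did so for Pax5 KO against Pax5 WT. Other calls moved. The 5 members lower in P80R B-ALL than in Pax5 KO became 3 with TMM scaling, 1 in edgeR, 3 in DESeq2 and 3 with a separate variance per group, an alternative added after seeing the data. The 1 member higher there became 2 in DESeq2 and 2 in a fit to all 12 libraries with a variance weight per group. An unweighted fit to all 12 libraries gave 4 members higher in Pax5 KO than Pax5 WT, against 8, and 4203 genes called, against 7898. With 1 library left out at a time, members called higher and lower ranged over 1 to 2 and 0 to 2 for P80R B-ALL against Pax5 WT. Against Pax5 KO they ranged over 1 to 2 and 0 to 5, with 3117 to 5313 genes called, against 4684. The extremes were 2 lower against Pax5 WT without recipient 1302, and 0 lower against Pax5 KO without library 2 of Pax5 KO.

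Changes of sign touched only differences that did not pass. Hif3a against Pax5 WT was -0.0072 with a pseudocount of 0.5 and -0.77 to 1.54 with 1 library left out, and Egln1 was -0.21 to 0.037. Egln2 against Pax5 KO was 0.011 without recipients 1300 and 1308. Epas1 in Pax5 KO against Pax5 WT was 0.13 with a pseudocount of 0.5, 0.051 with total-count scaling and -0.84 to 0.36 with 1 library left out. The cause was not tested.

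The fetal liver groups share replicate numbers. Same-numbered libraries correlated at 0.0049 to 0.06 in their deviations from the group means, and differently numbered ones at -0.063 to 0.036. With 4 libraries per group this neither shows nor excludes a pairing. With a replicate block 7995 genes were called and 8 members were higher. Depth limits Arnt2 and, in fetal liver, Epas1, which rest on few reads.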
